A study of Homo sapiens with 12 samples.

Results

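The multidomain members of the BCL2 family were examined in MM.1S, a human myeloma line established from peripheral blood plasma cells. They comprise the 6 anti-apoptotic genes MCL1, BCL2, BCL2L1, BCL2L2, BCL2A1 and BCL2L10 and the 3 pore-forming genes BAX, BAK1 and BOK. The members were chosen by symbol. Of the 9 listed, 8 had a row in the expression table that the platform annotation maps to them, 1 transcript cluster each, among 14884 genes tested. BCL2L2 was not analysed here. Each gene has 1 value per array that covers its transcripts together, so splice forms of MCL1, BCL2L1 or BAX with different activities cannot be told apart.

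Expression was measured on 12 Affymetrix arrays of total RNA, 3 in each of 4 groups, after 24 h of exposure. FPD cells received 1 nM filanesib, which blocks the mitotic kinesin KIF11, with 500 nM pomalidomide, which makes cereblon ubiquitinate IKZF1 and IKZF3, and 10 nM dexamethasone, a glucocorticoid. PD cells received 500 nM pomalidomide and 10 nM dexamethasone. F cells are labelled with 1 nM filanesib and 10 nM dexamethasone, although their title and the shared treatment protocol name only F. Control cells received vehicle. FKBP5, a co-chaperone gene that glucocorticoids induce, averaged 7.25 ± 0.04 in FPD, 7.06 ± 0.12 in PD, 5.74 ± 0.30 in F and 5.57 ± 0.03 in control (log2, SD, n = 3 each). Its difference between F and control did not pass the test (limma adjusted p = 0.902), and whether F cells received dexamethasone cannot be settled from the labels. F against control therefore compares filanesib, with or without dexamethasone, with vehicle. FPD against F likewise differs by pomalidomide alone if the F label holds, and by pomalidomide plus dexamethasone if not. All 4 groups are of 1 cell line. Whether replicate arrays stem from separate cultures is not stated, and p-values therefore reflect only array-to-array spread, which may be technical.

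Values are log2 expression from robust multi-array averaging, and a difference of 1 on this scale is a change of 2-fold. The medians of the 12 arrays spanned 4.23 to 4.27, and replicate arrays correlated at r = 0.988 to 0.992 across all rows. All 7 measured plasma cell markers lay above the array median in all 12 arrays, against 0 of 5 myeloid markers. This also held for 5 of 6 T cell markers, 2 of 4 B cell markers and 3 of 4 stromal or epithelial markers, so a level above the median does not by itself show expression. The mean of the plasma cell markers was 9.31 to 9.36 in FPD arrays, 9.30 to 9.40 in PD arrays, 9.61 to 9.67 in F arrays and 9.62 to 9.68 in control arrays. It was lower in both groups given pomalidomide, where 2 of the 7 genes were called against control, both lower. Over all genes 5.89% were called lower in FPD over control and 8.63% in PD over control. IRF4, a transcription factor that myeloma cells depend on, fell by 1.35 in FPD and by 1.23 in PD, and the surface receptor gene SLAMF7 fell by 0.54 in FPD and by 0.48 in PD. The other 5 did not pass the test. Of these, CD38 lay at 0.08 in FPD and -0.28 in PD, and POU2AF1 at -0.25 in FPD and -0.04 in PD. MZB1 lay at -0.09 in FPD and -0.07 in PD. SDC1 lay at 0.02 in FPD and -0.03 in PD, and XBP1 at -0.07 in FPD and 0.06 in PD. The list median was -0.09 in FPD and -0.07 in PD. The mean of the B cell markers was also lower, at 4.42 to 4.49 in FPD, 4.27 to 4.46 in PD, 4.54 to 4.75 in F and 4.63 to 4.76 in control. Of these 4 genes the complement receptor gene CR2 alone was called, falling by 0.96 in FPD and by 1.23 in PD, beside the same shares of all genes. No T cell, myeloid, stromal or epithelial marker was called by limma in a comparison of groups. The part of these markers in the values of the family was not tested. Precision is limited by the 3 arrays per group.

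BCL2 family proteins decide whether the outer mitochondrial membrane is opened during apoptosis. BAX and BAK1 form the pores that release cytochrome c, and the anti-apoptotic members hold BAX, BAK1 and the BH3-only activators in check. BOK is another pore former, regulated mainly through its stability. Plasma cells and most myelomas rely on MCL1, a short-lived protein, while a smaller group of myelomas relies on BCL2 or on BCL-XL, the main product of BCL2L1.

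MCL1 was the only member called in the main fit. Its expression was higher in both groups that received pomalidomide plus dexamethasone, by 1.29-fold in PD and 1.32-fold in FPD over control, and by 1.44-fold in FPD over F. No other member passed the test there in any comparison of 2 groups. Under other settings of the fit up to 3 members, MCL1 included, were called in FPD against F. Filanesib was not associated with a called difference of any member. The plot of values by array shows all 8 members.

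**Figure D1:**
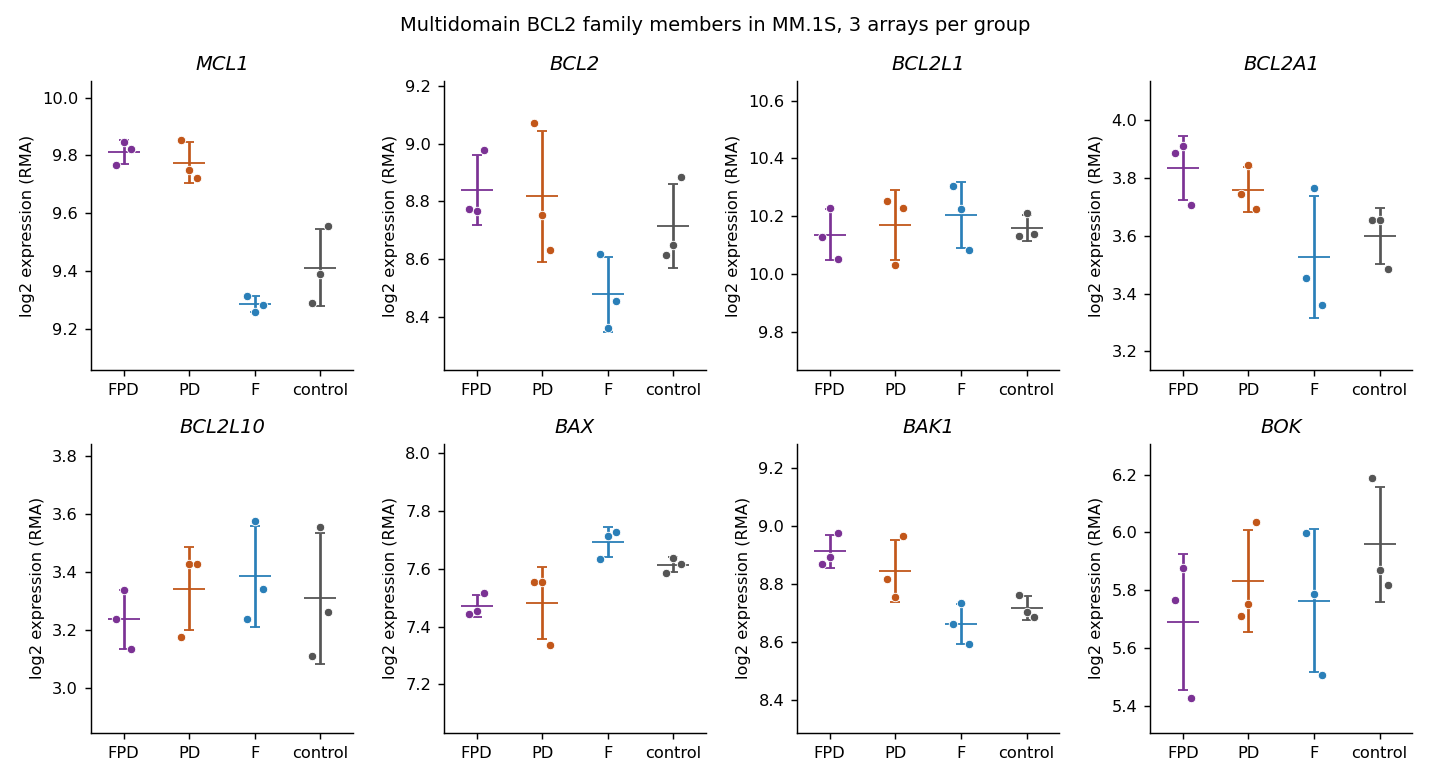
Log2 expression of each measured member in the 3 arrays of the FPD, PD, F and control groups; points are arrays, horizontal marks are group means, bars are the SD, and each panel spans the same number of log2 units. The MCL1 points of FPD and PD lie between 9.72 and 9.85, above all F and control points, which lie between 9.26 and 9.56, while the BCL2L1 points of the 4 groups overlap.

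MCL1 (transcript cluster 16692775) encodes the anti-apoptotic protein that binds BIM, NOXA and BAK. In the PD arrays its expression was 9.85, 9.75 and 9.72, and in the control arrays 9.29, 9.39 and 9.56. All PD arrays lay above all control arrays, and the third control array was the highest of its group. The means were 9.77 ± 0.07 in PD and 9.41 ± 0.13 in control (SD, n = 3 each), a log2 change of 0.36 with a 95% interval of 0.17 to 0.55 (limma, Benjamini-Hochberg adjusted p = 0.0108). Without the first control array the change was 0.30 and no longer passed the test (limma adjusted p = 0.0553), and it passed with each of the other 5 arrays left out.

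In the FPD arrays MCL1 lay at 9.77, 9.85 and 9.82, a mean of 9.81 ± 0.04 (SD, n = 3). This was above control by 0.40 (95% interval 0.21 to 0.59, limma adjusted p = 0.00663), and the call held with any 1 of the 6 arrays left out, with limma adjusted p-values of 0.00409 to 0.0394. The comparisons of PD and of FPD with control share the control arrays, so the changes of 0.36 and 0.40 are not independent of each other. FPD against F shares the FPD arrays but has F in place of control. F lay at 9.31, 9.26 and 9.28, a mean of 9.29 ± 0.03 (SD, n = 3), and FPD exceeded it by 0.53 (95% interval 0.34 to 0.72, limma adjusted p = 0.000754). Leaving out each of these 6 arrays gave changes of 0.51 to 0.55, all called, as the plot of adjusted p-values with 1 array left out shows.

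The order of MCL1 was FPD, PD, control and F, from the highest mean to the lowest. FPD and PD differed by 0.04 (95% interval -0.15 to 0.23, limma adjusted p = 0.932). The F mean lay below the control mean by 0.13, a difference that did not pass the test (95% interval -0.32 to 0.06, limma adjusted p = 0.903), and the F arrays overlapped with the control arrays. Of the 3 steps in this order, only the step between PD and control had ranges that did not overlap. The departure from additivity, meaning how far the combined FPD change exceeded the sum of the PD and F changes, was 0.16 (95% interval -0.11 to 0.43, limma adjusted p = 0.896). If F cells received dexamethasone, as labelled, that sum counts dexamethasone in both PD and F. The departure then does not measure how filanesib combines with pomalidomide plus dexamethasone.

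**Figure D2:**
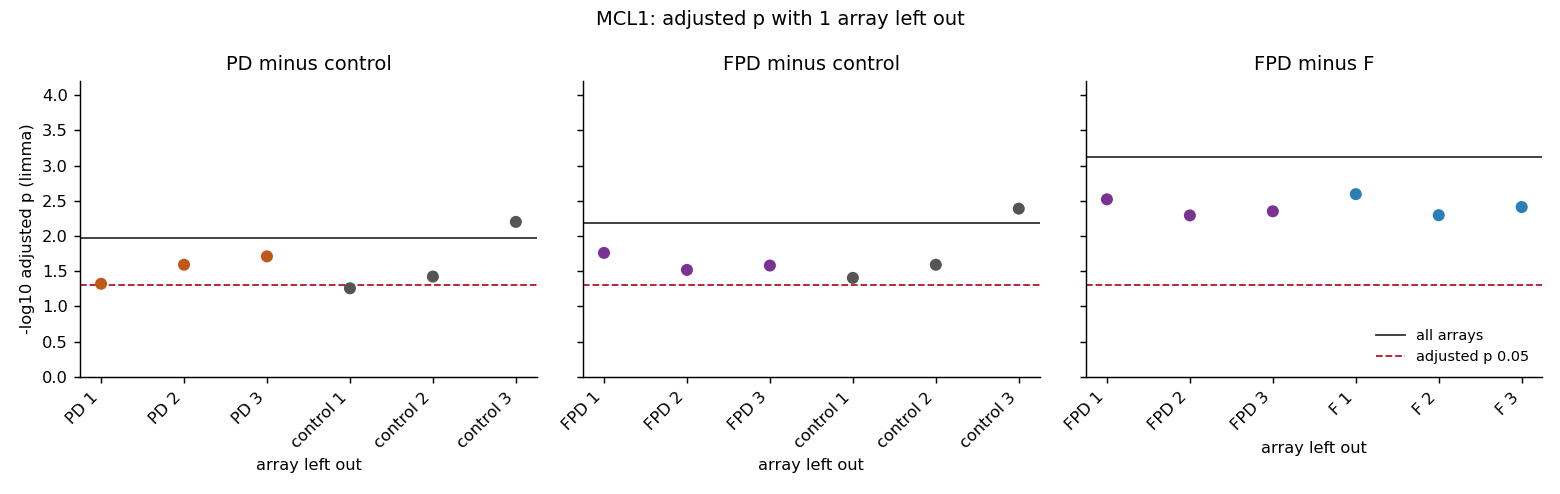
Negative log10 of the limma adjusted p of MCL1 in 3 comparisons with 1 array left out at a time; the solid line is the value with all arrays and the dashed line an adjusted p of 0.05. In PD minus control the value falls below the dashed line without control array 1 (adjusted p = 0.0553), and in FPD minus F all 6 values stay above it.

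BCL2 (transcript cluster 16855673) encodes the founding anti-apoptotic member, which is the target of venetoclax. Its expression was 8.77, 8.77 and 8.98 in FPD, 9.07, 8.75 and 8.63 in PD, 8.62, 8.36 and 8.45 in F, and 8.61, 8.65 and 8.88 in control. The PD arrays spread more widely than those of the other groups (SD 0.23, n = 3) and overlapped with control, while all FPD arrays lay above all F arrays. BCL2 in FPD exceeded F by 0.36 (95% interval 0.10 to 0.62) without passing the test (limma adjusted p = 0.06). It passed under 4 of 7 other settings of the fit, with its lowest value where only genes above the median mean expression were tested (limma adjusted p = 0.0295). The call was also made without the first F array (limma adjusted p = 0.0466), while leaving out other arrays gave values up to 0.227. Against control the changes were 0.12 in FPD (limma adjusted p = 0.612), 0.10 in PD (limma adjusted p = 0.673) and -0.24 in F (95% interval -0.49 to 0.02, limma adjusted p = 0.856). The order of its means was that of MCL1, namely 8.84 in FPD, 8.82 in PD, 8.72 in control and 8.48 in F, and the ranges of all neighbouring groups overlapped.

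BCL2L1 (transcript cluster 16918244), which encodes BCL-XL, differed least between groups among the 8 members. All 12 arrays lay between 10.03 and 10.30, with means of 10.14 ± 0.09 in FPD, 10.17 ± 0.12 in PD, 10.20 ± 0.11 in F and 10.16 ± 0.04 in control (SD, n = 3 each). Differences between groups ranged from -0.07 to 0.04, and none passed the test. The 95% interval of PD against control was -0.19 to 0.21, or 0.875-fold to 1.16-fold, and that of FPD against control -0.23 to 0.18, or 0.855-fold to 1.13-fold. With the arrays quantile normalized again the sign of its FPD change turned (0.01), which leaves no direction to report.

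BCL2A1 (transcript cluster 16812344), an NF-kB-induced anti-apoptotic gene of lymphoid and myeloid cells, lay below the array median in all 12 arrays. Its values were 3.89, 3.91 and 3.71 in FPD, 3.74, 3.85 and 3.69 in PD, 3.45, 3.77 and 3.36 in F, and 3.65, 3.66 and 3.49 in control. All FPD and PD arrays lay above all control arrays, but the second F array lay among them. The changes of 0.24 in FPD (limma adjusted p = 0.201) and 0.16 in PD (limma adjusted p = 0.4) over control did not pass the test. Nor did the larger difference of 0.31 in FPD over F (95% interval 0.07 to 0.54, limma adjusted p = 0.0782), which was called with the replicate number as a block (limma adjusted p = 0.0392) and without the second F array (limma adjusted p = 0.0198). BCL2L10 (transcript cluster 16809369), a member known mainly from the ovary and oocyte, was also below the array median throughout, between 3.11 and 3.58, with overlapping groups and changes over control of -0.07 in FPD (95% interval -0.34 to 0.19) and 0.03 in PD (-0.23 to 0.30). Neither gene was shown to be above background.

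Among the pore formers, BAX values were lower and BAK1 values mostly higher in the arrays with pomalidomide than in those without. BAX (transcript cluster 16863922) lay at 7.44, 7.45 and 7.52 in FPD, 7.56, 7.55 and 7.34 in PD, 7.63, 7.71 and 7.73 in F, and 7.59, 7.64 and 7.62 in control. All 6 FPD and PD arrays were thus below all 6 F and control arrays. The share of all genes that separate in this way was not computed. In PD against control alone, groups did not overlap for 29.0% of all genes. No single comparison passed the test: the change was -0.13 in PD over control (95% interval -0.32 to 0.05, limma adjusted p = 0.385), -0.14 in FPD over control (limma adjusted p = 0.366) and -0.22 in FPD over F (limma adjusted p = 0.118). The PD change was -0.07 with the arrays quantile normalized again.

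The promoter of BAX is shown because it holds several copies of a motif that the same window lacks in the other members with an entry. The sequences come from a set of RefSeq promoters (GRCh38.p14) that held entries for 6 of the 9 listed members. MCL1 had no entry in this set, so its promoter was not searched. The 250 bases before the start were searched on both strands. The palindrome CACGTG, the E-box bound by MYC with MAX and by related factors, occurred 4 times before BAX (chr19:48954625-48954874, plus strand, capitals mark the motif) and 0 times before BCL2, BCL2L1, BCL2A1, BAK1 and BOK.
BAX: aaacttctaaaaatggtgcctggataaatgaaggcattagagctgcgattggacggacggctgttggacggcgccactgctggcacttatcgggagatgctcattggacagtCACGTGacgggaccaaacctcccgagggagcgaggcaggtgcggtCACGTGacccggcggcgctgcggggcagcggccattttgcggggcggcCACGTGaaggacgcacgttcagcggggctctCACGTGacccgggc
Of 35116 promoter entries of the same length, 6.34% held at least 1 match and 5 held 4 or more. The letters are a description and do not show binding in these cells. MYC itself lay at 9.82 ± 0.08 in FPD, 10.14 ± 0.07 in PD, 10.53 ± 0.07 in F and 10.65 ± 0.04 in control (SD, n = 3 each), and MYC fell in PD by 0.52 (limma adjusted p = 0.000574) and in FPD by 0.83 (limma adjusted p = 8.57e-06) relative to control. The part of MYC in the BAX values was not tested. The glucocorticoid half-site AGAACA, found in 12.4% of all entries, had 0 matches before any of the 6 members with an entry, which do not include MCL1.

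BAK1 (transcript cluster 17018274), whose protein resides in the outer mitochondrial membrane and is held there by MCL1 and BCL-XL, lay at 8.87, 8.89 and 8.98 in FPD, 8.82, 8.76 and 8.96 in PD, 8.66, 8.73 and 8.59 in F, and 8.76, 8.70 and 8.69 in control. FPD lay above F and above control in every array, and PD overlapped with control only through its second array. The changes were 0.20 in FPD over control (95% interval 0.01 to 0.38, limma adjusted p = 0.179), 0.13 in PD over control (limma adjusted p = 0.405) and 0.25 in FPD over F (limma adjusted p = 0.0708). The last of these passed under 3 of 7 other settings, with a limma adjusted p of 0.0333 at the lowest and 0.121 at the highest.

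BOK (transcript cluster 16893531) was the most variable member, with a residual SD of 0.22 that exceeded that of 90.1% of all genes. It averaged 5.69 ± 0.23 in FPD, 5.83 ± 0.18 in PD, 5.76 ± 0.25 in F and 5.96 ± 0.20 in control (SD, n = 3 each), and the ranges of all 4 groups overlapped. Its lowest change was -0.27 in FPD over control (95% interval -0.58 to 0.04, limma adjusted p = 0.293). BAX and BAK1 varied little within groups by comparison, with residual SDs of 0.072 for BAX and 0.073 for BAK1 and intervals narrow enough to place their PD changes between -0.32 and 0.31.

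**Figure D3:**
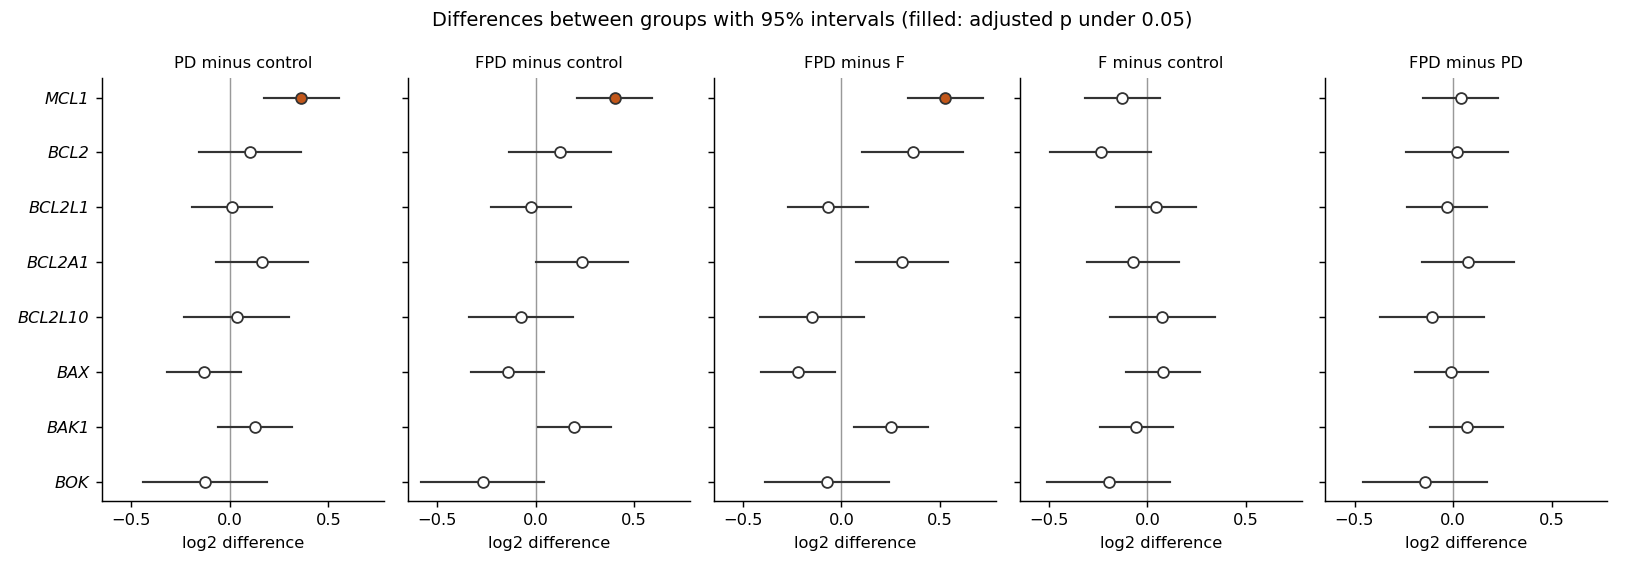
Log2 differences of the 8 members in 5 comparisons of 2 groups; horizontal lines are 95% intervals and filled points passed an adjusted p of 0.05. MCL1 is filled in PD minus control (0.36), FPD minus control (0.40) and FPD minus F (0.53), and no member is filled in F minus control or FPD minus PD.

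Counts of called members were close to the shares over all genes. In PD against control 1 of 8 members was called, beside 15.5% of all genes tested (6.84% higher and 8.63% lower), in FPD against control 1 of 8 beside 13.1% (7.26% higher and 5.89% lower), and in FPD against F 1 of 8 beside 14.1% (7.50% higher and 6.64% lower). The MCL1 change was larger than that of 85.4% of genes in PD, 89.7% in FPD and 93.9% in FPD against F, sign aside. The median log2 change of the 8 members was 0.07 in PD, against a median of -0.003 over all genes, and 0.05 in FPD, against -0.016. Groups did not overlap for 3 members in PD against control, where this held for 29.0% of all genes. They did not overlap for 4 of 8 members in FPD against control (29.9% of all genes) and for 4 of 8 in FPD against F (30.3%). Members with an unadjusted limma p under 0.05 numbered 1 in PD over control, 3 in FPD over control and 5 in FPD against F. The share of all genes at that level was not computed for these 3 comparisons, so these counts are not a result about the members. Even at the adjusted threshold 15.5%, 13.1% and 14.1% of all genes passed in them, in the same order. In F against control 0 of 8 members were called by limma and 0 had an unadjusted p under 0.05, beside 0.00672% and 6.01% of all genes. Changes there ran from -0.24 for BCL2 to 0.08 for BAX, and 0 members had groups that did not overlap (10.0% of all genes). Adding filanesib to pomalidomide plus dexamethasone gave no called member either. In FPD against PD 0 members were called by limma and 0 had an unadjusted p under 0.05 (0.0336% and 8.62% of all genes), the changes ran from -0.14 for BOK to 0.07 for BCL2A1, and 0 members had groups that did not overlap (14.4% of all genes). For the departure from additivity 0 members and 0 genes (0%) were called by limma, with 0 members and 5.60% of all genes at an unadjusted p under 0.05.

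The genes whose pattern over the 12 arrays was most like that of MCL1 were AVIL, NRIP1 and CFLAR. AVIL (transcript cluster 16766734), which encodes the actin-binding protein advillin, correlated with MCL1 at r = 0.990, NRIP1, a nuclear receptor corepressor, at r = 0.981, and CFLAR, which encodes the caspase-8 inhibitor c-FLIP, at r = 0.980. The arrays form 4 groups, so these values largely describe shared differences between groups. After group means were subtracted r was 0.919 for AVIL, 0.730 for NRIP1 and 0.873 for CFLAR. Choosing the genes by r over the same arrays favours high values here too. AVIL lay at 6.16 in FPD, 6.07 in PD, 5.19 in F and 5.51 in control. The 3 genes were chosen for following MCL1. Their r values, their order of groups, the size of their changes and their single arrays are therefore a description and were not tested. CFLAR differed from control by 1.17 in FPD and by 1.04 in PD, and AVIL by 0.65 in FPD and by 0.56 in PD. NRIP1 had several rows, and its FPD difference of 0.49 was 0.19 as their mean. The plot of MCL1 beside these genes shows that the third control array was also the highest of its group for all 4 genes.

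**Figure D4:**
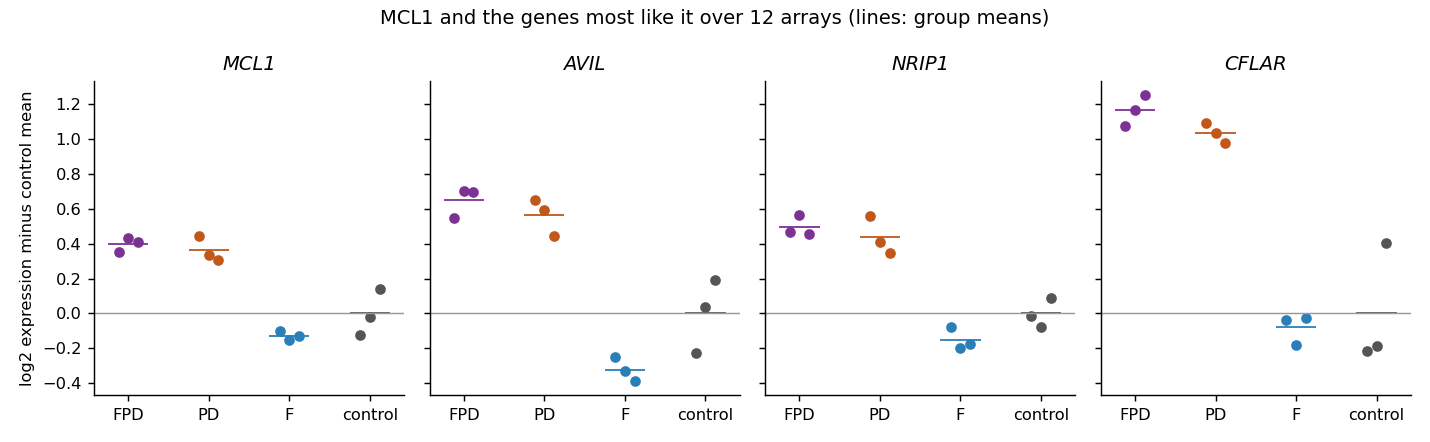
Log2 expression minus the control mean for MCL1 and the 3 genes most like it over 12 arrays, by group; points are arrays and lines group means. In all 4 genes FPD and PD lie above F and control on average, with CFLAR in FPD 1.17 above control and MCL1 0.40 above it.

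Among the partners of the multidomain members, BMF, a BH3-only gene, stood out. Among 7 measured BH3-only genes, whose proteins neutralise the anti-apoptotic members or activate BAX and BAK, it rose 3.77-fold in PD (log2 change 1.92, limma adjusted p = 5.71e-08) and 4.01-fold in FPD (2.00, limma adjusted p = 3.92e-08) over control, with means of 9.28 ± 0.18 in FPD, 9.19 ± 0.17 in PD, 6.96 ± 0.11 in F and 7.28 ± 0.18 in control (SD, n = 3 each). Under the 7 other settings of the fit the BMF change over control was called throughout. Its log2 size ran from 1.64 to 1.96 in PD and from 1.46 to 2.01 in FPD. All the changes in these lists share the control arrays between PD and FPD. BBC3, which encodes PUMA, rose by 0.50 in PD (limma adjusted p = 0.0218), and it lost the call without control array 2, control array 3 or PD array 3 (limma adjusted p up to 0.111). BID, which links death receptors to mitochondria, fell by 0.43 in PD and by 0.38 in FPD, the second lost narrowly without the third FPD array (limma adjusted p = 0.0501). PMAIP1, which encodes the MCL1-binding protein NOXA, fell by 0.36 in FPD (limma adjusted p = 0.0477). The PMAIP1 call was lost with any 1 of the 6 arrays left out, with limma adjusted p-values of 0.058 to 0.205. In all, 2 of 7 rose and 1 fell in PD, beside 6.84% and 8.63% of all genes, and 1 rose and 2 fell in FPD, beside 7.26% and 5.89%. With 1 array left out, 1 to 2 rose and 1 to 2 fell in PD, and 0 to 1 fell in FPD. Against F 1 rose and 1 fell in FPD, beside 7.50% and 6.64%. The median of the list was 0.02 in PD and -0.07 in FPD.

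Of 8 other relatives, BNIP3L, a mitophagy receptor, rose by 0.80 in PD (limma adjusted p = 0.00128) and by 0.63 in FPD (limma adjusted p = 0.00839), where the call was lost without the second FPD array (limma adjusted p = 0.0516). BCL2L12 rose by 0.27 in PD (limma adjusted p = 0.0473), a call lost with 4 of 6 arrays left out in turn. These made 2 of 8 higher and 0 lower in PD, beside 6.84% and 8.63% of all genes, and 1 higher and 0 lower in FPD over control, beside 7.26% and 5.89%. With 1 array left out, 1 to 2 were higher in PD, and 0 to 1 were higher and 0 to 1 lower in FPD. The list medians were -0.05 in PD and 0.05 in FPD. In FPD against F, BNIP3L was higher by 0.93 and BNIP1, which acts in membrane fusion of the endoplasmic reticulum, lower by 0.44 (log2 change -0.44, limma adjusted p = 0.0227). The BNIP1 call was lost with 4 of 6 arrays left out in turn (limma adjusted p up to 0.126).

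Of 9 measured genes of MCL1 turnover and its partners, USP13, a deubiquitinase reported to stabilise MCL1 protein, fell by 0.69 in PD (limma adjusted p = 0.000293). In FPD its change was -0.24 and did not pass the test (limma adjusted p = 0.173), and FPD exceeded PD by 0.45 without passing it either (95% interval 0.22 to 0.68, limma adjusted p = 0.162). CDC20, the activator of the anaphase-promoting complex, rose by 0.66 in FPD (limma adjusted p = 0.000124) and by 0.29 in PD (limma adjusted p = 0.0398), and the PD call was lost with any 1 of the 6 arrays left out. BTRC, an F-box protein that recognises phosphorylated MCL1 among other targets, rose by 0.41 in FPD over control (limma adjusted p = 0.0382), a call kept without 1 of the 6 arrays and lost without each of the other 5. In FPD over F, BTRC rose by 0.43 (limma adjusted p = 0.0277), lost with 5 of 6 arrays left out in turn, and USP13 fell by 0.37 (limma adjusted p = 0.0284), lost with 4 of 6. The list had 1 of 9 higher and 1 lower in PD, beside 6.84% and 8.63% of all genes, 2 higher and 0 lower in FPD over control, beside 7.26% and 5.89%, and 1 higher and 1 lower in FPD over F, beside 7.50% and 6.64%. With 1 array left out, 0 were higher in PD, 1 to 2 were higher and 0 to 1 lower in FPD over control, and 0 to 1 were higher and 0 to 1 lower in FPD over F. Its medians were 0.008 in PD and 0.09 in FPD. Protein levels, on which MCL1 turnover acts, were not measured on these arrays.

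Of 9 measured genes of the mitochondrial death pathway, 0 rose and 2 fell in PD, beside 6.84% and 8.63% of all genes, 1 rose and 3 fell in FPD over control, beside 7.26% and 5.89%, and 1 rose and 4 fell in FPD over F, beside 7.50% and 6.64%. With 1 array left out, 1 to 2 fell in PD, 0 to 1 rose and 1 to 3 fell in FPD over control, and 1 to 4 fell in FPD over F. VDAC1, a channel of the outer mitochondrial membrane, fell by 0.52 in PD (9.13 ± 0.04 in PD and 9.65 ± 0.09 in control, SD, n = 3 each, limma adjusted p = 0.000431) and by 0.42 in FPD (limma adjusted p = 0.00246). VDAC3 fell by 0.34 in PD (limma adjusted p = 0.0122), a call lost without the second control array (limma adjusted p = 0.0554). VDAC3 also fell in FPD, by 0.28 over control (limma adjusted p = 0.0439) and by 0.32 over F (limma adjusted p = 0.0205). These calls in FPD were not rechecked with arrays left out. VDAC2, which anchors BAK at mitochondria, was lower in FPD than in F by 0.33 (log2 change -0.33, limma adjusted p = 0.0298), and that call was lost with 4 of 6 arrays left out in turn. APAF1, the scaffold of the apoptosome that assembles once cytochrome c is released, rose by 0.35 in FPD over control (limma adjusted p = 0.0277) and by 0.45 over F (limma adjusted p = 0.00521). The call over control was lost with 5 of 6 arrays left out in turn. APAF1 averaged 4.90 in FPD, 4.55 in control and 4.45 in F, near the array medians of 4.23 to 4.27. It was not shown to be above background. HTRA2, a mitochondrial protease released with cytochrome c, fell by 0.37 in FPD over control (limma adjusted p = 0.0135), a call lost without the second control array or the second FPD array (limma adjusted p up to 0.0599). Over F, HTRA2 fell by 0.32 in FPD (limma adjusted p = 0.0312), not rechecked with arrays left out. The list medians were -0.02 in PD and -0.11 in FPD. In F against control and in FPD against PD, 0 members of the 4 lists were called by limma. The lowest adjusted p of each list in F against control belonged to CDC20 (0.40, limma adjusted p = 0.34), BMF (-0.32, limma adjusted p = 0.719), VDAC2 (0.22, limma adjusted p = 0.776) and BNIP3L (-0.31, limma adjusted p = 0.83). In FPD against PD it belonged to USP13 (above), BCL2L11, which encodes BIM (0.18, limma adjusted p = 0.669), HTRA2 (-0.15, limma adjusted p = 0.699) and BNIP1 (-0.17, limma adjusted p = 0.729).

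**Figure D5:**
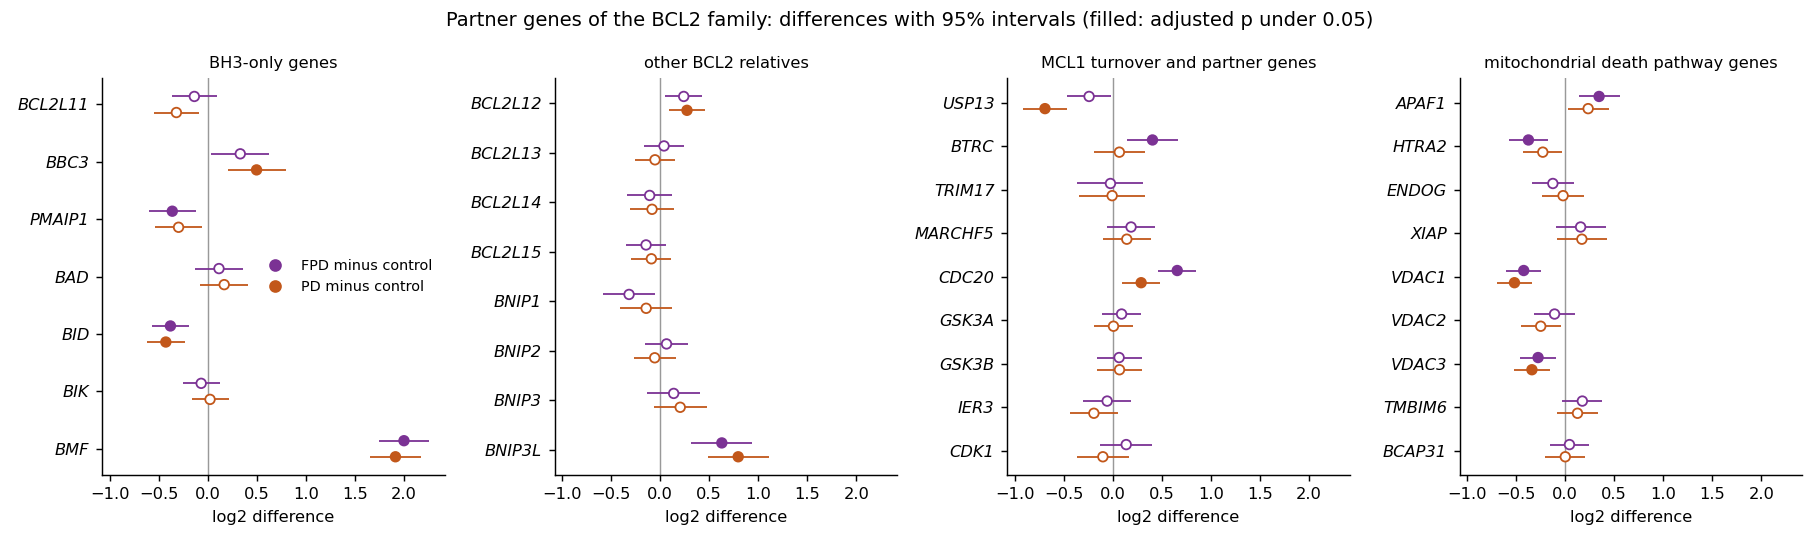
Log2 differences from control of FPD and PD for the measured genes of 4 lists; horizontal lines are 95% intervals and filled points passed an adjusted p of 0.05. BMF stands at 2.00 in FPD and 1.92 in PD, while VDAC1 lies at -0.42 in FPD and -0.52 in PD.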

How the data were processed

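The deposited table holds log2 expression values, 1 per transcript cluster and array, which the authors computed by RMA in Affymetrix Expression Console (per the submitters' processing notes). Their versions, settings and genome build are not given in the sources used here. RMA compresses low signals, so changes of weakly expressed genes are understated, and it scales arrays to a common distribution, so a change in total RNA per cell would not show. In the platform annotation 16098 rows had 1 gene symbol, 0 had several and 37519 had none. All 8 members had a single row. For the 779 genes with several rows the one with the highest mean over 12 arrays was used.

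The means of the 4 groups were fitted together with limma (version 3.58.1, R 4.3.3), leaving 8 residual degrees of freedom. Tests were two-sided, with p-values adjusted by Benjamini and Hochberg over 14884 genes and a threshold of 0.05. The model was checked on simulated data. "Rose" and "fell" are used of genes past the threshold.

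The members and the lists (BH3-only genes, other BCL2 relatives, MCL1 turnover and partner genes, mitochondrial death pathway genes, and markers of 5 cell types) were chosen with earlier results of these data known. All members were named, with the called list genes at the extremes of each comparison (at most 2 in each direction), the gene with the lowest adjusted p where none was called, and the 3 genes correlating best with MCL1, the member called in comparisons of groups. The further calls of VDAC3 and HTRA2 in FPD were named as well. List genes without a named row were not analysed here. Gene symbols were updated through RefSeq.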

Additional observations from a re-analysis of the deposited data

How the results depend on the processing

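Values were recomputed with the arrays quantile normalized again, the mean of a gene's rows, every row tested, only genes above the median mean (which leaves out BCL2A1, BCL2L10 and APAF1, among others), a trended robust prior, the compared arrays alone, the replicate number as a block, and each array left out. MCL1 kept its direction and its call in PD and FPD over control and in FPD over F under all of these, except in PD without control replicate 1. The count of members called was then 0, a range of 0 to 1 over arrays left out. In FPD against F the count was 3 with quantile normalization, with genes above the median mean and with the robust prior, 2 with the compared arrays alone and with the block, and 1 to 2 over arrays left out. Genes called in F against control numbered 32 with every row tested, 4 with the robust prior, 0 with genes above the median mean and with the block, and 0 to 2 over arrays left out. In FPD against PD they numbered 94, 31, 20, 8 and 0 with every row tested, the robust prior, genes above the median mean, the compared arrays alone, and the mean of rows or the block, and 0 to 15 over arrays left out. Quantile normalization turned the sign of BCL2L1 in FPD over control (0.012) and of BCL2 in FPD against PD (-0.027). Leaving out arrays turned uncalled signs. In PD over control BCL2 ranged from -0.023 to 0.20, BCL2L1 from -0.031 to 0.079 and BCL2L10 from -0.066 to 0.16. In F over control BCL2L1 ranged from -0.0060 to 0.11, BCL2A1 from -0.19 to 0.011 and BCL2L10 from -0.023 to 0.20. In FPD over control BCL2L1 ranged from -0.070 to 0.018 and BCL2L10 from -0.17 to 0.051. In FPD against PD BCL2 ranged from -0.072 to 0.15, BCL2L1 from -0.10 to 0.0084 and BAX from -0.082 to 0.027. BOK ranged from -0.20 to 0.058 in FPD against F and from -0.077 to 0.18 in the departure from additivity. The cause was not tested, apart from the larger or smaller number of rows or arrays that a setting itself brings.

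Replicate numbers recur across groups, and whether they pair the arrays is not settled by these values. Deviations from the group means of the 18 same-numbered pairs correlated at -0.22 to 0.11, 1 of them over 0.1. The median r was 0.024 for pairs with the same number and -0.015 for pairs with different numbers. Of the 12 arrays, 7 correlated best with their own number. With the replicate number as a block, 2277 genes were called in PD over control, 1916 in FPD over control and 2057 in FPD against F. Scaling moved the median of all genes by -0.020 to 0.010. Levels near the array median may be background, and 3 arrays per group limit the precision of every value.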
